A study of Mus musculus with 12 samples.

Results

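Dendritic cell genes were followed here in CT-26 tumors of mice that swam and of mice that did not. The set holds 10 genes, Xcr1, Clec9a, Batf3, Flt3, Zbtb46, Ccr7, Ccl22, Fscn1, Cd209a and Siglech, out of 30630 genes listed for every tumor. They were chosen by their symbols, with earlier results of these data known. The mouse annotation GENCODE M21 ties the symbols to the deposited Ensembl identifiers, and all 10 were found. CT-26 is a mouse colon carcinoma cell line. Cells were injected under the skin of the right flank of male BALB/c mice, bought at an age of 4 to 6 weeks, and 3 days later the mice were divided into a control group and a swimming group of 10 mice each. The control group was not assigned to swim, and mice of the swimming group were put in water for 2 swims daily, 6 days per week, each lasting up to 30 min, until the end of the experiment after 3 weeks. RNA sequencing was performed on 12 of the tumors, 6 from each group, each tumor from a different mouse. All tumors come from 1 cell line implanted in Matrigel beneath the skin, so a library can hold tumor cells together with the blood, immune and connective tissue cells of the host.

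Dendritic cells take up antigen, carry it to lymph nodes and show it to T cells. Type 1 conventional dendritic cells depend on the transcription factor BATF3, sense dead cells through CLEC9A and respond through the receptor XCR1 to the chemokine XCL1 made by NK cells and CD8 T cells. In tumors they are known for presenting tumor antigen to CD8 T cells. Mature dendritic cells switch on the homing receptor CCR7, and plasmacytoid dendritic cells are known as a source of type I interferon.

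The deposited unit is FPKM, fragments per kilobase of gene scaled to the fragments sequenced in a tumor. Of the 10 genes, 9 were weakly expressed, with means over the 12 tumors from 0.260 FPKM for Flt3 to 1.14 FPKM for Zbtb46. Fscn1 was at 59.4 FPKM, above 95.3% of the 19018 genes tested, while Flt3 was above 14.2% and Ccr7 and Zbtb46 above 34.5% of them. In order of mean level the genes were Fscn1, Zbtb46, Ccr7, Ccl22, Batf3, Cd209a, Xcr1, Clec9a, Siglech and Flt3. Apart from Fscn1, which was above Zbtb46 in 12 of 12 tumors, the means of neighbors in this order differed by less than the larger of their SDs. All 10 genes were above 0 in all 12 tumors. In bulk tissue such values cannot tell fewer cells of a type from less RNA per cell.

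The labelled cell type and the cells around it were checked with marker genes. Krt20, a keratin of intestinal epithelium, was at 154 ± 32.2 FPKM (SD, n = 6) in control tumors and 125 ± 19.1 FPKM (SD, n = 6) in swimming tumors. Of the other 7 colon epithelium genes listed, the keratins Krt8 and Krt18 were also expressed, at means of 17.6 and 9.72 FPKM, and Krt8 ranged from 1.86 FPKM to 129 FPKM, its value in control 4. The other 5 were low, with Cdh1 at a mean of 0.289, Krt19 at 0.173, Cdx2 at 0.0934, Epcam at 0.0422 and Vil1 at 0.0342 FPKM. Macrophage genes were abundant, and the summed level of 10 of them averaged 886 FPKM in control tumors and 935 FPKM in swimming tumors, with the complement gene C1qa the highest at 379 FPKM. Cd207, which marks Langerhans cells of the skin, had a mean of 0.065 FPKM and did not pass the filter on low values. The lymph node chemokines Ccl19 and Ccl21a were not analysed here.

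The FPKM values also hold a trace of the depth. For genes with 1 annotated transcript, FPKM times length fell on regular steps, and 99.1% to 99.3% of the values under 20 steps lay within 0.01 of a multiple of 0.25 steps. With the most frequent step taken as 1 fragment, the tumors held an estimated 12400000 to 17800000 fragments, with the lowest value in control 2 and at least 15500000 in the others. This is an estimate from the deposited values, and it assumes the transcript lengths of GENCODE M21.

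The groups were compared on log2(FPKM + 1) with limma over the 19018 genes that had at least 0.1 FPKM in at least 6 tumors. On this scale the change of weakly expressed genes is understated, so ratios of mean FPKM are also given. None of the genes passed limma's threshold of 0.05 after Benjamini-Hochberg adjustment, neither over all genes tested (0%) nor among the 10 dendritic cell genes (0). At an unadjusted p below 0.05, 2 of the 10 genes, Xcr1 and Flt3, were higher in the swimming group and 0 were lower. For all genes tested, 5.56% passed this threshold in either direction and 3.11% were higher. Among genes with a mean under 2 FPKM, as 9 of the 10 are, 5.65% passed it in either direction. The log2 difference was above 0 in 7 of the 10 genes and in 51.7% of all genes tested, with medians of 0.12 and 0.0039. All 10 genes passed the filter on low values.

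**Figure D1:**
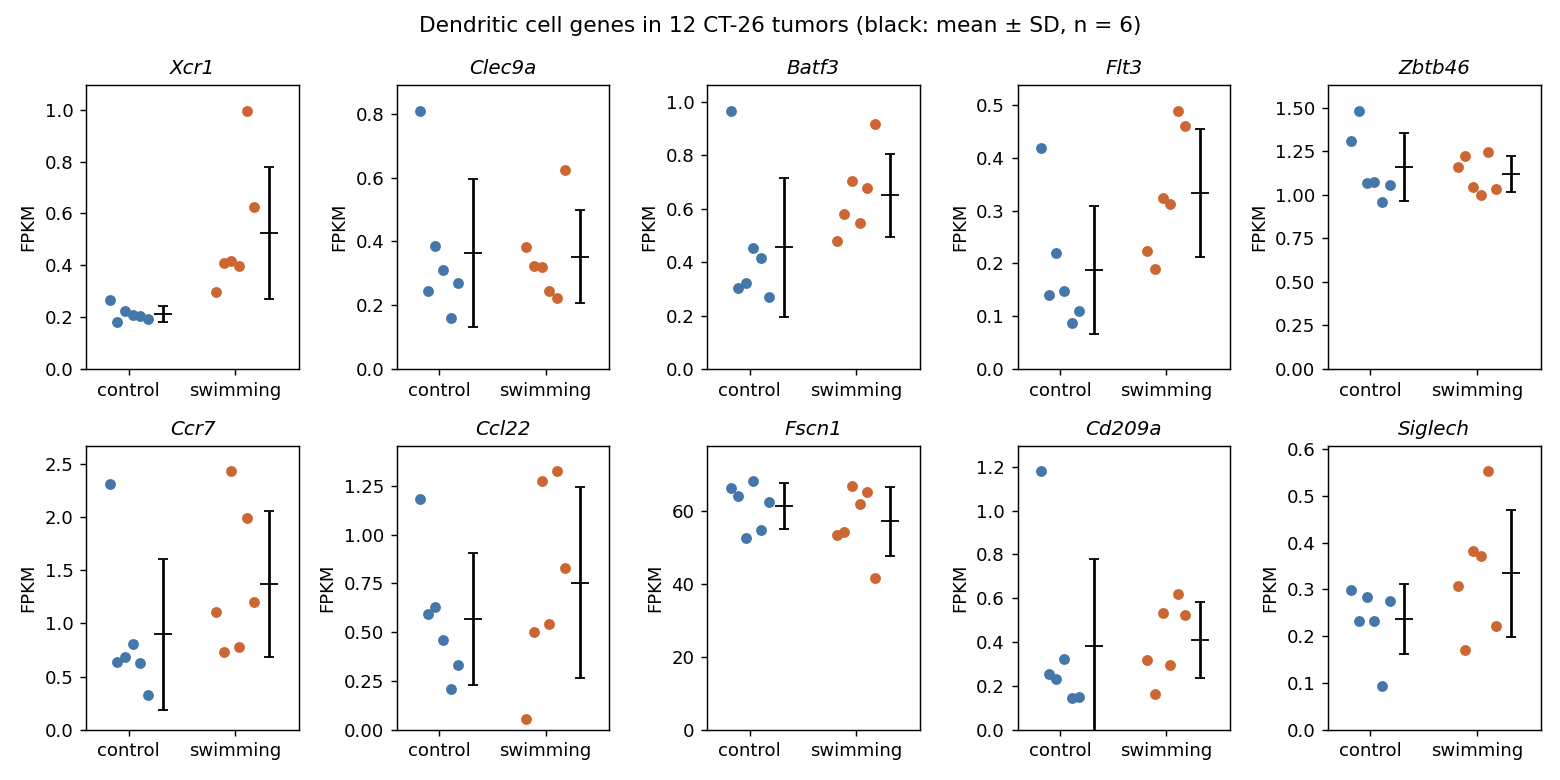
FPKM of the 10 genes (vertical axes, each from 0) in the 6 control and 6 swimming tumors, with 1 point per tumor in the order of the replicate numbers and the mean ± SD beside them in black. The groups are apart for Xcr1 alone, where the highest control tumor is at 0.265 and the lowest swimming tumor at 0.295 FPKM, and control 1, the leftmost point, is the highest control tumor for every gene but Zbtb46 and Fscn1.

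Of the type 1 genes, Xcr1 (ENSMUSG00000060509, chromosome 9 from 123852315 to 123862029 in GRCm38), the receptor of XCL1, had the smallest p of the 10 genes. In control tumors Xcr1 was at 0.265, 0.182, 0.222, 0.209, 0.202 and 0.193 FPKM in control 1 to control 6. In swimming tumors it was at 0.295, 0.410, 0.418, 0.398, 0.996 and 0.623 FPKM in swimming 1 to swimming 6. All 6 swimming tumors were above all 6 control tumors, and swimming 5 and swimming 6 were the highest. The means were 0.212 ± 0.0292 FPKM (SD, n = 6) and 0.524 ± 0.255 FPKM (SD, n = 6), a ratio of 2.47. The log2 difference was 0.31 (standard error 0.089), at an unadjusted p of 0.00373 and adjusted p of 0.889 by limma. A two-sided exact permutation test gave p = 0.00216, the smallest that 6 against 6 tumors can give. Without 1 tumor the log2 difference lay between 0.23 and 0.36 and limma's unadjusted p between 0.00154 and 0.0095. Among all genes tested, the groups did not overlap in 0.147%, and in 0.0789% all swimming tumors were the higher ones.

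Xcr1 has 1 annotated transcript of 4453 bases, whose exons overlap no other gene, so its values could be turned into fragments. An estimated 10 to 21 fragments per tumor stood behind the control values and 22.75 to 76 behind the swimming values. The nearest tumors of the groups, control 1 with 21 fragments (95% Poisson interval 13 to 32.1) and swimming 1 with 22.75 (14.4 to 34.2), were not apart beyond counting error. Summed over tumors, 91.75 fragments in the control group (73.9 to 113) stood against 233 in the swimming group (204 to 265). These intervals cover counting error only, and not the spread between mice.

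**Figure D2:**
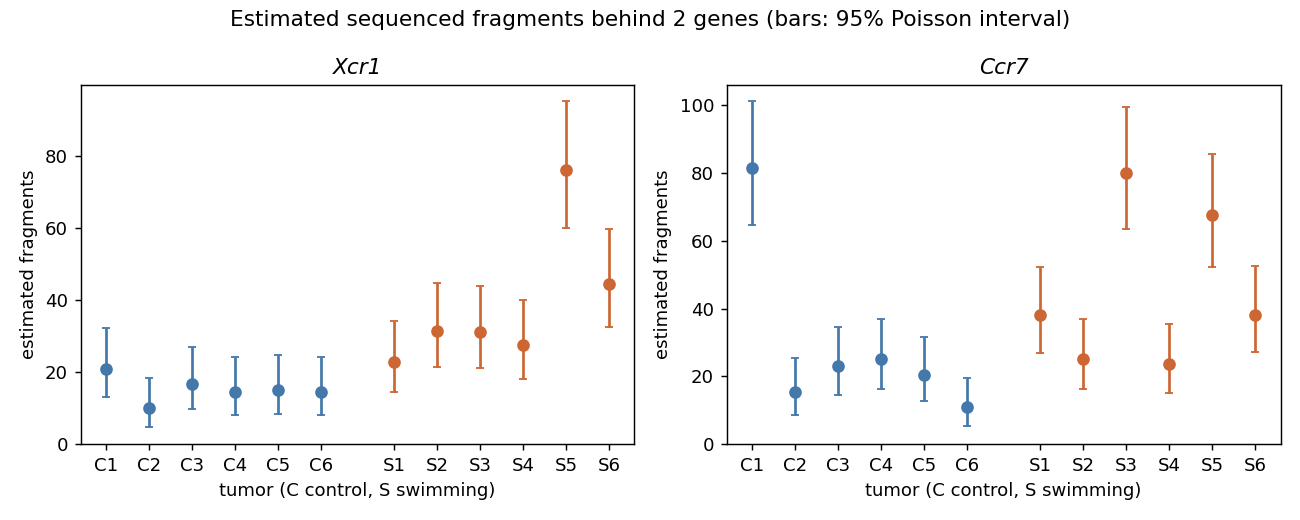
Estimated number of sequenced fragments (vertical axes, from 0) for Xcr1 and Ccr7 in each control tumor (C1 to C6) and swimming tumor (S1 to S6), with 95% Poisson intervals. For Xcr1 the intervals of control 1 and swimming 1 overlap while swimming 5 with 76 fragments lies apart from all control tumors, and for Ccr7 control 1 with 81.5 fragments is as high as swimming 3 with 80.

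Clec9a (ENSMUSG00000046080, chromosome 6 from 129408862 to 129424763), the receptor for exposed actin of dead cells, was almost level between the groups. Control tumors ranged from 0.160 to 0.810 FPKM with a median of 0.291, and swimming tumors from 0.222 to 0.6248 FPKM with a median of 0.320. The groups overlapped widely, and control 1 was the highest of all tumors. Means were 0.364 ± 0.231 FPKM (SD, n = 6) and 0.352 ± 0.145 FPKM (SD, n = 6), a log2 difference of -0.0034 (standard error 0.1, two-sided exact permutation p = 0.976). Its sign turned with smaller pseudocounts and without control 1, where the difference was 0.081. Some exons of Clec9a overlap Clec1b on the same strand, which was at most at 0.0572 FPKM.

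The difference between these genes was tested within tumors, a comparison chosen after their values had been seen. On the log2 scale Xcr1 minus Clec9a was -0.16 ± 0.19 (SD, n = 6) in control tumors and 0.16 ± 0.28 (SD, n = 6) in swimming tumors, a change of 0.32 (two-sided exact permutation p = 0.0173). Without control 1 the change was 0.25 at a two-sided exact permutation p of 0.0498. Without both control 1 and swimming 5 it was 0.14 at a two-sided exact permutation p of 0.0635.

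Batf3 (ENSMUSG00000026630, chromosome 1 from 191097847 to 191108945), the transcription factor on which type 1 cells depend, was at 0.269, 0.369 and 0.967 FPKM at the lowest, the median and the highest control tumor. For swimming tumors these values were 0.479, 0.629 and 0.918 FPKM. All 6 swimming tumors were above the control median and above 5 of the 6 control tumors, with control 1 as the exception. The log2 difference was 0.19 (standard error 0.10), at an unadjusted p of 0.0849 and adjusted p of 0.889 by limma. With array weights Batf3 had an unadjusted p of 0.0295 by limma. Without control 1 the difference was 0.28 at an unadjusted p of 0.00201 and adjusted p of 0.742 by limma.

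Of genes shared by dendritic cells in general, Flt3 (ENSMUSG00000042817, chromosome 5 from 147330741 to 147400489) codes for the receptor of FLT3 ligand, the growth factor of dendritic cells and their precursors. Control tumors ranged from 0.0876 to 0.418 FPKM with a median of 0.144, and swimming tumors from 0.190 to 0.489 FPKM with a median of 0.318. All 6 swimming tumors were above the control median, although control 1 was above 4 of them. Means were 0.187 ± 0.122 FPKM (SD, n = 6) and 0.333 ± 0.121 FPKM (SD, n = 6), a ratio of 1.78. The log2 difference was 0.17 (standard error 0.077), at an unadjusted p of 0.0476 and adjusted p of 0.889 by limma, while an exact permutation test (two-sided) gave p = 0.0606. A block for the replicate number gave Flt3 an unadjusted p of 0.101 by limma, and without 1 tumor it lay between 0.00623 without control 1 and 0.106 without swimming 5, with the call of Flt3 lost in 9 of these 12 fits.

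Zbtb46 (ENSMUSG00000027583, chromosome 2 from 181387762 to 181459426), a transcription factor of conventional dendritic cells that endothelial cells also use, varied little between tumors. Its lowest, median and highest values were 0.959, 1.07 and 1.48 FPKM in control tumors and 1, 1.1 and 1.25 FPKM in swimming tumors. The groups overlapped throughout, and the log2 difference was -0.024 (standard error 0.07, two-sided exact permutation p = 0.708). Without control 2, its highest tumor, the difference was 0.017.

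To show the regions upstream of these genes, the 250 bases before the RefSeq start were taken from the table for GRCm38.p6, which holds 9 of the 10 genes. Xcr1 and Flt3, the genes at an unadjusted p below 0.05, are printed with Clec9a, each 5′ to 3′ on the strand of the gene, and capitals mark CG dinucleotides:
Xcr1 (chr9:123862030-123862279, minus strand): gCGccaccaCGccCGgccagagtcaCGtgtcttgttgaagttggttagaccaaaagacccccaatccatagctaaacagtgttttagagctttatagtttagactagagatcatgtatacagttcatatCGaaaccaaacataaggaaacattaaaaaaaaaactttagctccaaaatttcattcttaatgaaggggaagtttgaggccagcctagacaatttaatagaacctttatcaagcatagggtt
Flt3 (chr5:147400490-147400739, minus strand): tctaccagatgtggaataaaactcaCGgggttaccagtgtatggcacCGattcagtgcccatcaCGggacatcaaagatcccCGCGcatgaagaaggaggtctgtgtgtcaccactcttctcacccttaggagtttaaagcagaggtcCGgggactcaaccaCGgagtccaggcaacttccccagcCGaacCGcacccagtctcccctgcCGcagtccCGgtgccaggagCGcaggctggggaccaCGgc
Clec9a (chr6:129408612-129408861, plus strand): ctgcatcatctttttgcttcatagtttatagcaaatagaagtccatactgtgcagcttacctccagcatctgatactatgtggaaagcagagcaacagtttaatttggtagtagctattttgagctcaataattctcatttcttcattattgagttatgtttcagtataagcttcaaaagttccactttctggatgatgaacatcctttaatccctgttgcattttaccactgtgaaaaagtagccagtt
The Xcr1 window holds 5 CG dinucleotides, that of Flt3 holds 13 and that of Clec9a 0, against a median of 6 over 32851 promoters. GC content was 38.8%, 59.2% and 35.6%. Letters of 4 known motifs were searched on both strands: GGG and CC with 5 bases between them for NF-kB, GAAA and GAAA with 2 bases between them for an interferon response element, GGAA and GAAA with 2 bases between them for an ETS and IRF composite site, and TGANTCA for AP-1. None of the 3 printed windows holds any of them. These letters are found in 45.8%, 2.98%, 2.30% and 6.75% of all promoters. Of the other genes, Batf3, Ccl22 and Fscn1 hold the NF-kB letters and Zbtb46 holds TGANTCA. A match is a description of the letters and not of a bound factor.

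Mature dendritic cells were represented by Ccr7, Ccl22 and Fscn1. Ccr7 (ENSMUSG00000037944, chromosome 11 from 99144196 to 99155077), the receptor that guides mature cells to lymph nodes, was at 0.330, 0.660 and 2.31 FPKM at the lowest, the median and the highest control tumor. For swimming tumors these values were 0.733, 1.16 and 2.43 FPKM. All 6 swimming tumors were above the control median, and control 1, swimming 3 and swimming 5 stood out with 2.31, 2.43 and 1.99 FPKM. An estimated 11 to 81.5 fragments per control tumor and 23.75 to 80 per swimming tumor stood behind them. The ratio of means was 1.53 and the log2 difference 0.34 (standard error 0.22), at an unadjusted p of 0.148 and adjusted p of 0.901 by limma. Without control 1 the difference was 0.51 at an unadjusted p of 0.0122 and adjusted p of 0.742 by limma.

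Ccl22 (ENSMUSG00000031779, chromosome 8 from 94745590 to 94751699), a chemokine that draws CCR4-bearing cells such as regulatory T cells, ranged from 0.207 to 1.18 FPKM in control tumors with a median of 0.527. Swimming tumors covered a wider range, from 0.0559 FPKM in swimming 1 to 1.32 FPKM in swimming 5, with a median of 0.686. On the log2 scale the difference was 0.14 (standard error 0.19, two-sided exact permutation p = 0.526), and the means of 0.567 ± 0.341 and 0.754 ± 0.49 FPKM (SD, n = 6 each) lay less than either SD apart. Ccl17, the other CCR4 ligand, was at 0.597 ± 0.346 FPKM (SD, n = 6) and 0.675 ± 0.522 FPKM (SD, n = 6). Their receptor Ccr4 was at a mean of 0.0342 FPKM and did not pass the filter.

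Fscn1 (ENSMUSG00000029581, chromosome 5 from 142960343 to 142973185) codes for fascin, which bundles actin in the processes of mature dendritic cells and also in many carcinoma cells. Its lowest, median and highest values were 52.8, 63.4 and 68.2 FPKM in control tumors and 41.7, 58.3 and 66.9 FPKM in swimming tumors. Between the groups it differed by -0.11 on the log2 scale (standard error 0.11, two-sided exact permutation p = 0.383). Its 12 values lay far above those of Ccr7 and Ccl22, and 2 of 6 swimming tumors were above the control median.

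Cd209a (ENSMUSG00000031494, chromosome 8 from 3743397 to 3748984), a lectin of monocyte-derived and type 2 dendritic cells, was at 0.142, 0.244 and 1.18 FPKM at the lowest, the median and the highest control tumor. In swimming tumors these values were 0.165, 0.420 and 0.618 FPKM. Control 1 was the highest of all tumors, while 5 of 6 swimming tumors were above the control median. On the log2 scale the difference was 0.059 (standard error 0.15, two-sided exact permutation p = 0.773). Without control 1 it was 0.20 at an unadjusted p of 0.0407 and adjusted p of 0.742 by limma. Of the related genes, Cd209d was at 0.385 ± 0.45 and 0.328 ± 0.159 FPKM and Cd209f at 0.535 ± 0.491 and 0.420 ± 0.297 FPKM (SD, n = 6 each), with log2 differences of -0.016 and -0.081. The genes Cd209b, Cd209c and Cd209e had means from 0.0519 to 0.137 FPKM and did not pass the filter.

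Siglech (ENSMUSG00000051504, chromosome 7 from 55768178 to 55778925), a surface lectin of plasmacytoid dendritic cells, ranged from 0.0933 to 0.299 FPKM in control tumors with a median of 0.255. Swimming tumors ranged from 0.171 to 0.552 FPKM with a median of 0.339. The groups overlapped, with control 5 the lowest and swimming 5 the highest tumor. On the log2 scale the difference was 0.11 (standard error 0.071), at a two-sided exact permutation p of 0.156.

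**Figure D3:**
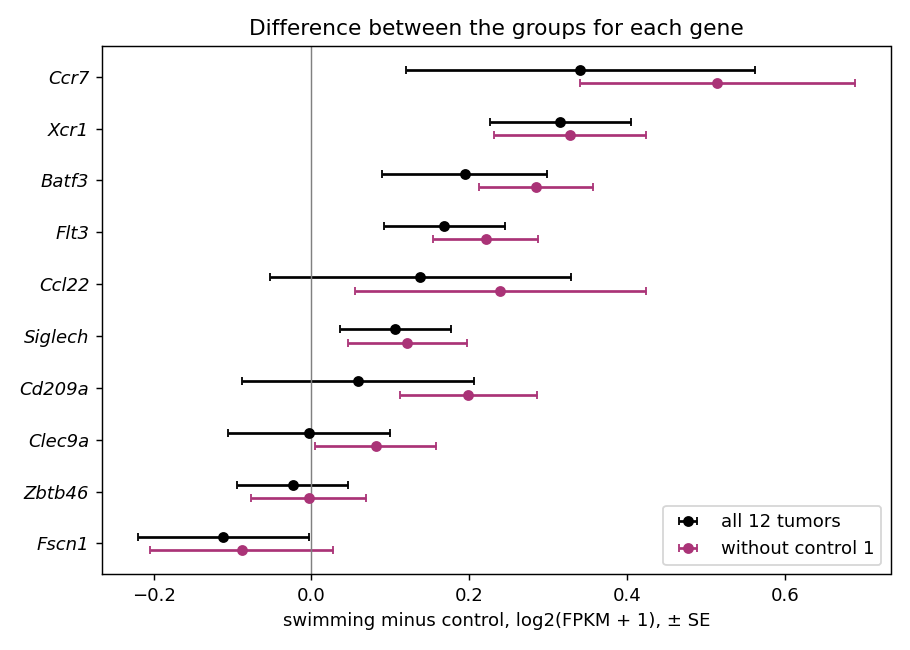
Difference of the mean log2(FPKM + 1), swimming minus control (horizontal axis), with its standard error for each of the 10 genes, from all 12 tumors in black and without control 1 in purple. Without control 1 the points of Ccr7, Batf3 and Cd209a move to the right, from 0.34, 0.19 and 0.059 to 0.51, 0.28 and 0.20, while that of Xcr1 moves from 0.31 to 0.33.

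Control 1 stood apart from the other control tumors. It was the highest control tumor for 8 of the 10 genes, and swimming 5 was the highest swimming tumor for 6, namely Xcr1, Flt3, Zbtb46, Ccl22, Cd209a and Siglech. Control 1 also had the highest summed level of B cell genes, 6.32 FPKM against at most 0.806 in the other control tumors. Adipocyte genes summed to 176 FPKM in control 1 and to at most 15.9 in the other control tumors, of which Cfd, the adipocyte protease adipsin, gave 102.6 FPKM and Fabp4, a fatty acid-binding protein, 44.7 FPKM in control 1, and fibroblast genes summed to 790 FPKM in control 1. In swimming 5 these sums were 1.72, 44 and 757 FPKM. The part of these other cells in the levels of the dendritic cell genes was not tested.

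Without control 1, 5 of the 10 genes, Xcr1, Flt3, Batf3, Ccr7 and Cd209a, were higher in the swimming group at an unadjusted p below 0.05 by limma, where 3.70% of all genes tested were. None of the 5 had an adjusted p below 0.742. This fit was set apart after the values had been seen, because control 1 was the highest control tumor for 8 of the 10 genes. Leaving out such a tumor raises the difference of those genes by construction. Without any other single tumor, Xcr1 alone or Xcr1 and Flt3 were past the unadjusted threshold. Without both control 1 and swimming 5, a choice made after the values had been seen, 4 genes remained, Xcr1, Flt3, Batf3 and Ccr7, against 2.73% of all genes tested. Xcr1 alone was past the unadjusted threshold without any 1 of the 12 tumors.

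The 10 genes were also compared with each other across tumors. The points of each comparison are the same 12 libraries, with the depth and the cell content of each tumor shared by all genes. Of the 45 pairs, 40 had a Pearson r above 0 on the log2 scale. With 3 ligand and receptor pairs, 48 relations were computed, and in permutation tests 8 of them passed an adjusted threshold of 0.05 for both Pearson's r and Spearman's rho. All 8 were pairs among Xcr1, Flt3, Batf3, Ccr7, Ccl22 and Cd209a.

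The closest pair was Ccr7 and Cd209a, genes of mature and of monocyte-derived or type 2 cells. Their Pearson r over 12 tumors was 0.870 (permutation p = 9e-05, adjusted p = 0.00432) and Spearman's rho was 0.937 (permutation p = 6e-05, adjusted p = 0.00288). Leaving out control 1 and swimming 3, the tumors farthest from the median of Ccr7, gave an r of 0.907 (permutation p = 0.00015). It was also positive within each group, at 0.976 in control tumors (0.746 without control 1) and 0.845 in swimming tumors.

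Flt3 and Batf3, a growth factor receptor and a transcription factor of type 1 cells, had an r of 0.843 (permutation p = 0.00068, adjusted p = 0.00893) and a rho of 0.839 (permutation p = 0.00117, adjusted p = 0.00936). With swimming 5 and swimming 6 left out, the r of this pair was 0.835 (permutation p = 0.00243), and it was 0.852 in control tumors and 0.730 in swimming tumors. The value in control tumors rests on control 1, without which it was -0.15. Xcr1 and Flt3 had an r of 0.792 (permutation p = 0.00093, adjusted p = 0.00893) and a rho of 0.853 (permutation p = 0.0008, adjusted p = 0.00768). When swimming 5 and swimming 6 were left out, the r of Xcr1 and Flt3 was 0.589 (permutation p = 0.0734), no longer past the threshold. Within the groups it was 0.919 in control tumors (0.598 without control 1) and 0.851 in swimming tumors. Batf3 was related to Ccr7 with an r of 0.804, at 0.973 within control tumors but 0.390 within swimming tumors. With Cd209a its r was 0.820, at 0.952 within control tumors and 0.646 within swimming tumors. Control 1 was the highest control tumor for Batf3, Ccr7 and Cd209a. The control values of these pairs of Batf3 were not computed without it, so how far they rest on control 1 is not known.

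Xcr1 and Clec9a, both receptors of type 1 cells, showed no detectable relation over all tumors. Their r was 0.0303 (permutation p = 0.924, adjusted p = 0.949) and their rho was 0.210 (permutation p = 0.515, adjusted p = 0.664). Within the control group r was 0.917 (0.574 without control 1), and within the swimming group it was -0.11. Single tumors decide the value in the swimming group, which was 0.720 without swimming 5 and -0.76 without swimming 6. Swimming 5 had the highest Xcr1 of all tumors and the second lowest Clec9a. Fscn1 had an r between -0.27 and 0.41 with the other genes, and none of its relations had an adjusted p below 0.05 in permutation tests.

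**Figure D4:**
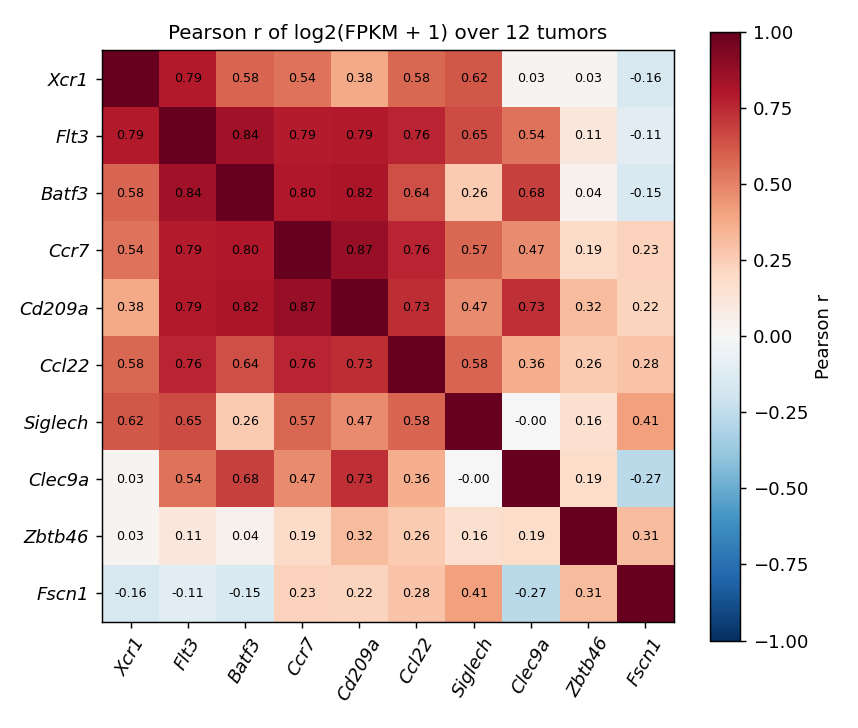
Relations between pairs of the dendritic cell genes across the 12 tumors on the scale of log2(FPKM + 1), with Pearson r as the measure. Ccr7 and Cd209a (r = 0.870) and Flt3 and Batf3 (r = 0.843) are closely related, while Xcr1 and Clec9a (r = 0.0303) show no detectable relation.

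Other genes of type 1 cells were taken from a list of 16, which holds Xcr1, Clec9a and Batf3. All 16 were tested, and 2 were higher at an unadjusted p below 0.05 and 0 were lower, against 3.11% higher and 2.46% lower over all genes tested. The median log2 difference was 0.18 against 0.0039 for all genes tested. Beside Xcr1, the gene past the threshold was Tlr3, a sensor of double-stranded RNA that many other cells also use. Tlr3 was at 2.67 ± 0.635 FPKM (SD, n = 6) in control tumors and 3.77 ± 0.413 FPKM (SD, n = 6) in swimming tumors, a log2 difference of 0.39 (standard error 0.11, limma's unadjusted p = 0.0035, adjusted p = 0.889). Nfil3 and Id2, transcriptional regulators found in many cells, were the most abundant of the list at 15 and 14.2 FPKM and differed little between the groups. Irf8, a transcription factor that type 1 cells require and that macrophages and B cells also express, was at 6.63 ± 1.53 and 7.76 ± 1.48 FPKM (SD, n = 6 each) at a two-sided exact permutation p of 0.208.

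Of 10 genes of dendritic cells in general, 8 were tested and 1, Flt3, was higher at an unadjusted p below 0.05 (3.11% of all genes tested), a call lost in 13 of 22 alternatives. Itgax, the integrin CD11c, was at 1.99 ± 0.458 and 2.64 ± 0.96 FPKM (SD, n = 6 each), at a two-sided exact permutation p of 0.184. Ly75, the uptake receptor DEC-205, was the most abundant of them at 12.6 FPKM, followed by the signaling adaptor Traf1 at 3.09 FPKM, and both differed by less than their SD between the groups.

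Of 20 genes of mature dendritic cells, 19 were tested, and 2 were higher at an unadjusted p below 0.05 (3.11% of all genes tested) and 0 were lower. The median log2 difference was 0.09. Cd40, the receptor through which T helper cells activate dendritic cells, was at 0.538 ± 0.127 FPKM (SD, n = 6) in control tumors and 0.906 ± 0.271 FPKM (SD, n = 6) in swimming tumors. Its log2 difference was 0.30 (standard error 0.099, limma's unadjusted p = 0.00939, adjusted p = 0.889), and 5 of 6 swimming tumors were above the control median. Cd274 codes for PD-L1, a checkpoint ligand that tumor cells and macrophages also carry. It was at 6.90 ± 1.91 and 10.6 ± 4.31 FPKM (SD, n = 6 each), a log2 difference of 0.50 (standard error 0.22, limma's unadjusted p = 0.0444, adjusted p = 0.889). The call of Cd274 was lost in a two-sided exact permutation test (p = 0.0844), without the filter on low values (limma's p = 0.0525) and in 9 of the 12 fits without 1 tumor. After Fscn1, Tmem123 was the most abundant gene of the list at 30.95 FPKM. Of 16 genes of type 2 and monocyte-derived cells, 13 were tested and 1, Tnip3, was higher at an unadjusted p below 0.05 (3.11% of all genes tested). Tnip3 was at 0.0896 FPKM in control tumors and 0.168 FPKM in swimming tumors, and its call was lost in 13 of 22 alternatives. The most abundant gene of that list was Klf4, a transcription factor of many tissues, with 71.2% of the summed level, followed by Sirpa, a receptor that macrophages share.

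Of 15 genes of plasmacytoid cells, 11 were tested and 0 were past the unadjusted threshold in either direction (5.56% of all genes tested). Bst2, which interferon induces in many cells, made up 87.3% of their summed level, followed by Irf7, an interferon regulator. The sum was 290 ± 25.3 FPKM (SD, n = 6) in control tumors and 346 ± 79.8 FPKM (SD, n = 6) in swimming tumors. Tcf4, the transcription factor of these cells that is also found elsewhere, was at 3.82 and 3.80 FPKM.

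A further list of growth factors, ligands and their receptors leaves out Xcr1, Flt3 and Ccr7. Of its 7 tested genes (Flt3l, Csf1, Csf2, Csf2ra, Csf2rb, Xcl1 and Tnfsf11), 0 were past the unadjusted threshold, against 5.56% of all genes tested. Flt3l, the ligand of FLT3, was at 2.54 ± 0.246 and 2.54 ± 0.49 FPKM (SD, n = 6 each). Xcl1, the ligand of XCR1, was at 1.33 ± 0.743 and 1.73 ± 0.873 FPKM (SD, n = 6 each). Csf2, the growth factor GM-CSF, was at 0.513 ± 0.613 and 0.840 ± 0.48 FPKM, and its receptor subunit gene Csf2rb at 4.22 ± 1.69 and 4.26 ± 0.874 FPKM (SD, n = 6 each). Differences of these genes were within the SD of the groups. Across tumors, Flt3l and Flt3 had an r of 0.537 (permutation p = 0.0673, adjusted p = 0.147), with a rho of 0.364 (permutation p = 0.244, adjusted p = 0.455). Xcl1 and Xcr1 had an r of 0.502 (permutation p = 0.105, adjusted p = 0.218) and a rho of 0.259 (permutation p = 0.418, adjusted p = 0.587), and r was -0.02 without control 5 and swimming 5. Csf1, the macrophage growth factor, and Csf2ra, the other GM-CSF receptor subunit, were the most abundant of this list at 36.9 and 14.4 FPKM.

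Genes of antigen presentation on MHC class II, which dendritic cells share with macrophages and B cells, were higher at an unadjusted p below 0.05 in 7 of 8 cases and lower in 0 (H2-Aa, H2-Ab1, H2-Eb1, Cd74, Ciita, H2-DMa and H2-DMb1), where 3.11% of all genes tested were higher. Their adjusted p by limma was 0.889. All 7 were lowest in control 5 and highest in swimming 5 of the 12 tumors, so the 7 calls are not separate results. A block for the replicate number left 2 of the 7 calls, H2-DMa and H2-DMb1. Leaving out swimming 5 left 4, without H2-Aa, H2-Ab1 and H2-Eb1, and leaving out swimming 6 left 5, without H2-Aa and H2-Eb1. The median log2 difference of the 8 MHC class II genes was 0.96, and they summed to 245 ± 111 FPKM (SD, n = 6) in control tumors and 489 ± 211 FPKM (SD, n = 6) in swimming tumors. H2-Oa, a modulator of peptide loading, was the exception at 0.226 and 0.245 FPKM. Cd74, the invariant chain, was the most abundant, with 136 ± 61.7 and 271 ± 116 FPKM (SD, n = 6 each), and Ciita, the transcriptional activator of this pathway, was at 0.700 ± 0.339 and 1.68 ± 0.904 FPKM (SD, n = 6 each). Swimming 5 had the highest MHC class II sum, 789 FPKM, as it had for Xcr1. In mean level over the 12 tumors, H2-Oa at 0.236 FPKM was below Xcr1 at 0.368 FPKM. The other 7 MHC class II genes were above Xcr1, from Ciita at 1.19 FPKM to Cd74 at 204 FPKM. Macrophage genes were the most abundant of the marker lists.

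Markers of other cells were read beside these values. Of 8 T cell genes, 5 were higher at an unadjusted p below 0.05 (3.11% of all genes tested) and 0 were lower, namely Cd3d, Cd3g, Cd8a, Cd8b1 and Cd5, each at an adjusted p of 0.889 by limma. The call of Cd8b1 was lost with the replicate block and without control 5, swimming 2 or swimming 5, and that of Cd8a without both control 1 and swimming 5. The 8 T cell genes summed to 7.37 ± 2.64 FPKM (SD, n = 6) in control tumors and 12.8 ± 4.15 FPKM (SD, n = 6) in swimming tumors, with Lck the most abundant gene and swimming 5 the highest tumor at 19.6 FPKM. Of 5 NK cell genes, 1 was higher (3.11% of all genes tested), namely Klrk1, though not without both control 1 and swimming 5 (limma's unadjusted p = 0.0506). The NK cell sums were 2.46 ± 0.66 and 3.65 ± 1.21 FPKM (SD, n = 6 each). Of the macrophage, monocyte, neutrophil, fibroblast, skeletal muscle, adipocyte and B cell genes, 0 were past the unadjusted threshold (5.56% of all genes tested in either direction). Neither were the 5 colon epithelium genes tested nor Krt10 and Cxcl13, the only tested genes of keratinocytes and of lymph node stroma. The most abundant genes were C1qa and C1qb for macrophages, Plac8 and Ccr2 for monocytes, S100a9 and S100a8 for neutrophils, Cd79b and Cd79a for B cells, Col1a2 and Col3a1 for fibroblasts, Acta1 and Mylpf for muscle, Fabp4 and Cfd for adipocytes, Krt20 and Krt8 for colon epithelium, and Ncr1 and Klrk1 for NK cells. The part of T cells, NK cells and macrophages in the differences of the dendritic cell genes was not tested.

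The genes whose pattern over the 12 tumors was most like that of the dendritic cell genes were also looked up, among genes with a mean of at least 1 FPKM. For the mean of Xcr1 and Clec9a they were Itm2b, C3, Trbc2, Snrpa and Il13ra1, with r between 0.871 and 0.896. For the mean of Ccr7 and Ccl22 they were Hvcn1, Sf3a2, Pltp, Ctsh and Lipa, with r between 0.903 and 0.932. For Siglech they were Gm29237, Cenpa, Kbtbd11, Esr1 and Tubb2b, with r between 0.892 and 0.912. Trbc2 codes for a constant region of the T cell receptor, and Ctsh and Lipa for lysosomal enzymes. These are the highest of up to 12789 correlations each over 12 tumors and are given as a description.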

How the data were processed

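RNA was sequenced from 12 CT-26 tumors, whose group and number come from the labels. The authors removed ribosomal RNA and trimmed adaptors, and the submitters' processing notes name HISAT2 2.0.5 and StringTie 1.3.3. For the genome, the methods give human hg38 and the notes give hg38 and GRCm38, but the identifiers in the files are mouse Ensembl genes. Each deposited value is the FPKM of 1 gene, already divided by the authors by gene length and sequencing depth. How reads shared by overlapping genes were assigned is not given in the sources used here.

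GENCODE M21 on GRCm38 gave symbols for 30542 of the 30630 identifiers, and the coordinates. The groups were compared with limma 3.58.1 in R 4.3.3 (lmFit, then eBayes with trend) on log2(FPKM + 1). Genes had to reach 0.1 FPKM in 6 or more tumors, which left 19018, and Benjamini-Hochberg adjustment was over all of them. Fragments were estimated from the steps of FPKM times transcript length. Exact permutation tests (two-sided) were run for single genes, and 100000 permutations for each correlation. Python 3.11.15, pandas 2.3.3, scipy 1.17.1 and matplotlib 3.10.9 were used. The comparison was tested on simulated data.

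The 10 genes and the gene lists were chosen with earlier results of these data known. Named are the 10 genes, from each list the genes at an unadjusted p below 0.05 and the 2 most abundant ones, the ligands and receptors, and the 5 genes most alike in pattern. Itgax, Irf8, Tcf4 and the marker genes at low level were named outside this rule, after their values were seen. Krt18, H2-Oa, Clec1b and the genes related to Cd209a were also named outside it. As alternatives, the pseudocount was set to 0.1 and 0.01, the filter was dropped or raised to 1 FPKM, and values were quantile normalized or scaled by a trimmed mean of log ratios. Further alternatives were no trend in eBayes, array weights, the replicate number as a block, exact permutation tests and leaving out each tumor in turn. Leaving out control 1 and swimming 5 together, and leaving out single tumors in correlations within a group, were chosen after seeing the data. So was the choice to describe the fit without control 1 on its own. Tumors are from separate mice, and all 12 were used.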

Additional observations from a re-analysis of the deposited data

Results flagged for a closer look

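In each group of 6 tumors, the highest and the lowest value were compared with the nearest other value relative to the range of the group (Dixon's ratio). Of 60 groups looked at, 12 held a tumor that stood apart, and chance gives about 1 in 20, or 3. The 60 groups come from the same tumors and are not independent, so 12 against 3 is only a rough comparison.

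Control 1 stood apart from the other control tumors with high values for 4 dendritic cell genes. Clec9a was at 0.810 FPKM there and at most at 0.386 FPKM in the other control tumors. Batf3 was at 0.967 FPKM against at most 0.451 FPKM, Ccr7 at 2.31 FPKM against at most 0.810 FPKM, and Cd209a at 1.18 FPKM against at most 0.324 FPKM. In the same tumor, B cell genes summed to 6.32 FPKM against at most 0.806 FPKM, and adipocyte genes to 176 FPKM against at most 15.9 FPKM. The part of these cells in the levels of the 4 genes was not tested.

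Siglech in control 5 was low, at 0.0933 FPKM, with the nearest control tumor at 0.232 FPKM. In swimming 5 the summed levels of macrophage genes (1209 FPKM), B cell genes (1.72 FPKM) and adipocyte genes (44 FPKM) were above those of the other swimming tumors, where the highest values were 921, 1.007 and 18.6 FPKM. Neutrophil genes summed to 39.95 FPKM in swimming 6, with the nearest swimming tumor at 19.5 FPKM. Skeletal muscle genes summed to 169 FPKM in control 6, with the nearest control tumor at 56.1 FPKM.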

How the results depend on the processing

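In limma's test, the count of dendritic cell genes higher in the swimming group at an unadjusted p below 0.05 was 2 with all tumors. It was 3 with array weights, where Batf3 was added, 1 with quantile normalization and 1 with eBayes without trend, where Flt3 was the gene lost, and 0 with a filter of 1 FPKM, which left Fscn1 and Zbtb46 as the only ones of the 10 genes tested. Leaving out 1 tumor at a time gave 1 to 5 genes, with 5 without control 1, and leaving out control 1 and swimming 5, chosen after seeing the data, gave 4. Xcr1 was past the threshold in every alternative that tested it, while its smallest adjusted p was 0.257. Clec9a, at -0.0034 with all tumors, turned to 0.0297 and 0.0560 with pseudocounts of 0.1 and 0.01, to 0.0214 with array weights and to 0.109 without control 1 and swimming 5, and lay between -0.0577 and 0.0813 without 1 tumor. Zbtb46 lay between -0.0509 and 0.0175 without 1 tumor, and above 0 only without control 2. Over all genes, 391 were higher with a filter of 1 FPKM, against 591, and 398 to 853 without 1 tumor. After adjustment, limma's threshold of 0.05 was passed by 1 gene with array weights (Txndc5) and by 0 to 3 genes without 1 tumor, with none of the dendritic cell genes among them. They were 3 without control 4 (Txndc5, Phospho2 and Atp6v0c) and 2 without swimming 1 (Gm13419 and Klf9). The cause of these changes was not tested, except that a stricter filter tests fewer genes.

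With the replicate block, 1 dendritic cell gene, Xcr1, was higher at an unadjusted p of 0.00929, Flt3 was at an unadjusted p of 0.101, and 451 genes were higher and 441 lower, with 0 past limma's adjusted threshold. In the same fit, 2 of the 7 MHC class II calls and 4 of the 5 T cell calls were left. As a check of the numbers, deviations from the group means correlated at -0.12 on average between tumors of the same number and at 0.0246 between those of different numbers. Of 6 control tumors, 0 matched best with its own number. The check gave no sign of a pairing, but so few tumors cannot exclude one. Depth limits Xcr1, with an estimated 10 to 76 fragments per tumor, and Ccr7, with 11 to 81.5, and fragments were not estimated for the other 8 genes.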
